A study of Homo sapiens with 18 samples.

Results

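Transcripts of 9 genes of the EGR, NR4A and IER groups were followed in IMR90 cells, a line of human lung fibroblasts, exposed to an oxidant after pre-incubation with hyaluronan (HA). The genes were taken by symbol: EGR1, EGR2 and EGR3, NR4A1, NR4A2 and NR4A3, and IER2, IER3 and IER5. All 9 were found among the 56269 genes of the deposited table, and 8 of them passed the filter on low values used for tests (a mean normalized count of at least 10). The pre-incubation lasted 6 h, in PBS or in 20 μg/ml of HA made by naked mole-rat skin fibroblasts (NSF). In cNSF-HA the polymer had been heated together with hyaluronidase that was already inactive, and in fNSF-HA it had been partially fragmented by active hyaluronidase. The pre-incubation medium was then removed, tert-butyl hydroperoxide (tBHP), which produces peroxyl and alkoxyl radicals, was given at 200 μM for 1 h, and RNA was taken 6 h after the start of the oxidant. The libraries without tBHP came from cells collected at the end of the pre-incubation, so that in every comparison with and without tBHP the oxidant, the change of medium and the later time of collection cannot be told apart. Each of the 6 groups (PBS, cNSF-HA and fNSF-HA, without and with tBHP) held 3 biological replicates of this 1 cell line.

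Immediate early genes are transcribed within minutes of a stimulus without new protein synthesis, and most of their transcripts are short-lived. The EGR proteins are zinc finger transcription factors that bind GC-rich sites. The NR4A proteins are orphan nuclear receptors without a classical ligand pocket that bind DNA as monomers or dimers, some of them also with RXR partners. The IER group is named for the fast kinetics of its transcripts, IER2 and IER5 being related proteins and IER3 an unrelated one. Many genes of this kind carry a CArG box in their promoter, the site of serum response factor, or a cyclic AMP response element (CRE), the site of CREB family factors.

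The promoters are shown because these sites occur in several of the genes described. RefSeq windows (GRCh38.p14, from 250 bases before to 50 after a gene start) were matched by symbol for 6 of the 9 genes, with 9 windows in all. Capitals mark CArG boxes and CRE cores (TGACG, either strand) in the EGR1, EGR2 and NR4A3 windows, and the heat shock element unit (GAANNTTC) in the IER5 window. The windows lie on chr5:138465229-138465528 (plus strand), chr10:62816317-62816616 (minus strand), chr9:99821635-99821934 (plus strand) and chr1:181088450-181088749 (plus strand).
EGR1: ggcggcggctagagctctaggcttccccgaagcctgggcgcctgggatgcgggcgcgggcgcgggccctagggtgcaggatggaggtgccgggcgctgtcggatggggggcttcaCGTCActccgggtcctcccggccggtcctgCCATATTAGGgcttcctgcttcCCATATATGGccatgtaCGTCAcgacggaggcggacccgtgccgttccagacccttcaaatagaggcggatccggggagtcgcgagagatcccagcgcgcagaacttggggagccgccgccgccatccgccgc
EGR2: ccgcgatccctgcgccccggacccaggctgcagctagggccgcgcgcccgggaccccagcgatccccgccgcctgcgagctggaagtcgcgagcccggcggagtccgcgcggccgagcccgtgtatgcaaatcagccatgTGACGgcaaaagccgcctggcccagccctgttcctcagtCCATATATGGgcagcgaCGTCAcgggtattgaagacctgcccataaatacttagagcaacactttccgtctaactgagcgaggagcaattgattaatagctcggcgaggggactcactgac
NR4A3: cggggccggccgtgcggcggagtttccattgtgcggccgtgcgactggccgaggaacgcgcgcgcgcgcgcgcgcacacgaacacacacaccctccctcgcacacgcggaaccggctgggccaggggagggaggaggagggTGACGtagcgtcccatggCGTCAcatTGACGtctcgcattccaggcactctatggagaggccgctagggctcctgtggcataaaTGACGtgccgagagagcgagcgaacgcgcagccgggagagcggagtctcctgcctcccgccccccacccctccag
IER5: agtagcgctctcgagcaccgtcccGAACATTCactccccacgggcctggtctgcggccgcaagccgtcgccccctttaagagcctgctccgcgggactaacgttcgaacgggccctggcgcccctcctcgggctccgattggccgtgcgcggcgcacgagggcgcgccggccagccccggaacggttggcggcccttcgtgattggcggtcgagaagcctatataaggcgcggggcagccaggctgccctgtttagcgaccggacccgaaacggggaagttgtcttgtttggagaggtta

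The EGR1 window held 2 CArG boxes and 2 CRE cores, and the EGR2 window held 1 CArG box and 2 CRE cores. The other 2 EGR2 windows held neither. A CArG box was found in 1.29% of the 35116 windows of the table, and a CRE core in 24.6%. NR4A3 had 4 CRE cores within 109 bases of its start and no CArG box, IER2 had 1 CRE core and 1 ETS motif (CCGGAAG, in 10.3% of windows), and neither NR4A1 window held any of the motifs searched. The heat shock element unit was found for IER5 alone among the 6 genes and in 6.77% of all windows. The full CRE (TGACGTCA, in 1.85% of windows, each also holding the core), the EGR sites GCGTGGGCG (0.795%) and GCGGGGGCG (5.07%), the NR4A monomer site AAAGGTCA (1.22%), the AP-1 site TGANTCA (7.71%) and the p53 response element without spacer (0.0171%) were absent from all 9 windows. CCTGCG, the motif that the study names for the intracellular domain of the HA receptor CD44, occurred in 2 of the EGR2 windows and in 23.5% of all windows. Both strands were searched, and a match is a description of these letters only.

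The 18 libraries held 20261103 to 26287660 reads on genes (median 22526525), and the 18 pairs of replicates held 0 identical pairs. All 10 lung fibroblast markers checked had a mean normalized count of at least 10 (their summed count was 591004 to 612652 without and 454189 to 719276 with tBHP). Of the epithelial markers only KRT8 and KRT18 (2 of 6), of the endothelial markers only VWF (1 of 4) and of the leukocyte markers 0 of 4 reached a mean of 10. KRT18 and KRT8 were well above it, with means of 1437 and 357. The summed epithelial count was 1904 to 2152 without and 1158 to 2041 with tBHP. KRT5, SFTPC and CDH5 were at 0 in every library. The fNSF-HA tBHP replicate 2 stood apart: the quintile of transcripts with the highest GC content had a median deviation of -0.61 on the log2 scale from the mean of the 9 tBHP libraries, and the quintile with the lowest GC content one of 0.43. In the other 8 tBHP libraries the deviation of the GC-rich quintile lay between -0.13 and 0.25. Results that turn on that library are given with and without it.

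The genes were expressed over a wide range in cells that had seen only PBS, with EGR1, IER2 and IER5 far above the rest. Per kilobase of merged exons, the mean normalized count in PBS cells without tBHP was 812 ± 27.1 (SD, n = 3) for EGR1, 504 ± 31.5 for IER2 and 331 ± 6.12 for IER5. It was 59.3 ± 1.45 for NR4A1 and 49.8 ± 10.7 for IER3, whose libraries overlapped, 28.0 ± 4.04 for EGR3 and 12.3 ± 2.03 for NR4A2. EGR2 (2.39 ± 0.572) and NR4A3 (2.32 ± 0.787) were lowest and overlapped. After tBHP in PBS cells the per-kilobase order was nearly the same, with EGR1 at 1162 ± 114, IER2 at 885 ± 128 and IER5 at 645 ± 44.7. NR4A1 (142 ± 13) again overlapped IER3 (108 ± 23.9), and NR4A2 (41.9 ± 9.96) now overlapped EGR3 (44.4 ± 2.43). NR4A3 reached 12.2 ± 3.58, and EGR2 stayed at 2.59 ± 1.11. The plot of normalized counts by library shows each gene on its own scale.

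**Figure D1:**
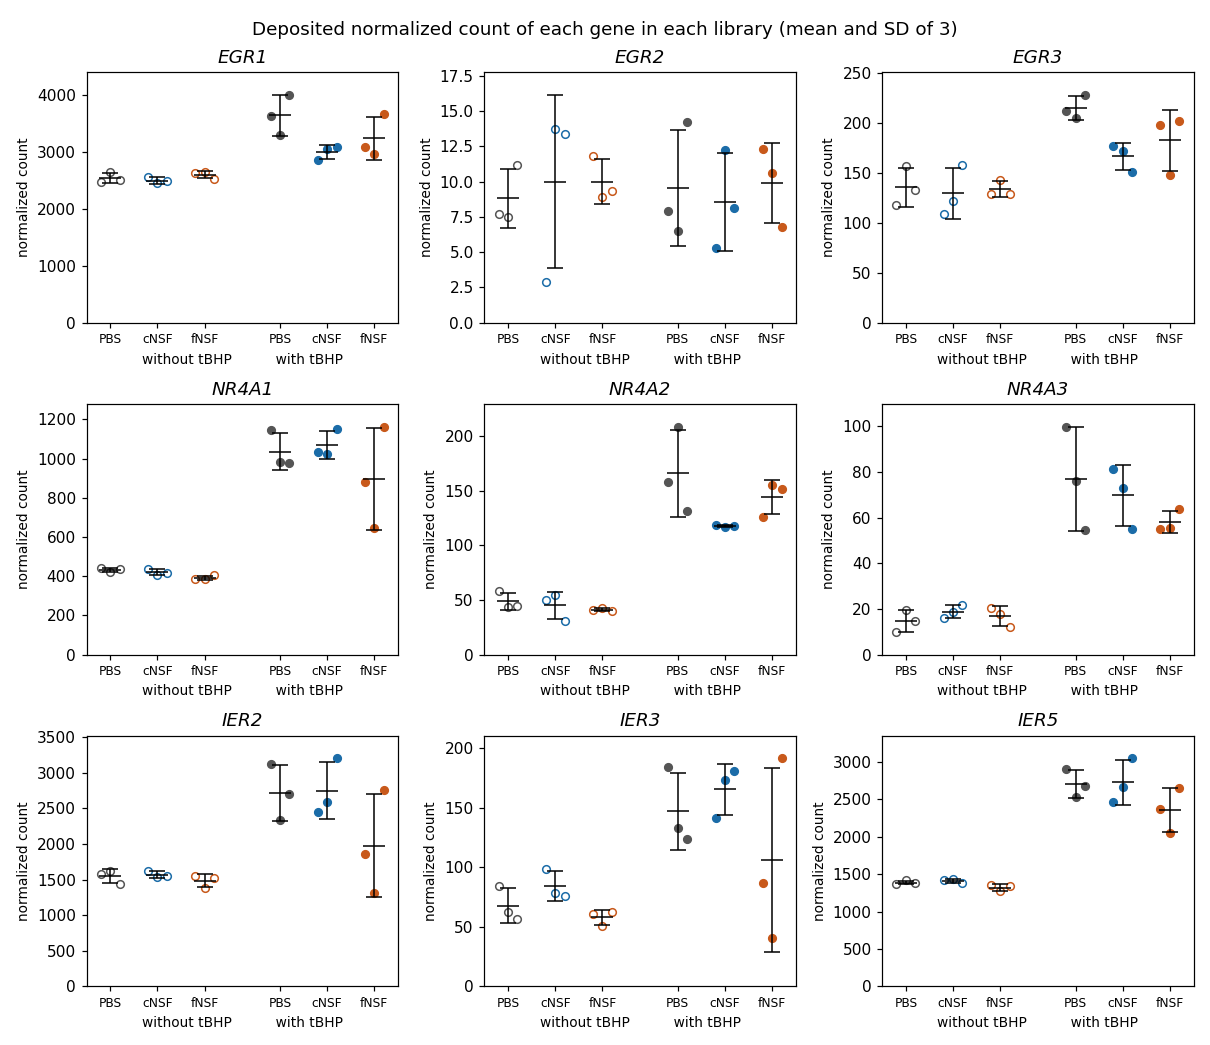
Deposited normalized counts (vertical axes, from 0, a scale for each gene) of the 9 genes in each library, by pre-incubation, without tBHP (open points) and with tBHP (filled points); bars show the mean and SD of 3 replicates. All 9 tBHP libraries lie above the 9 others for EGR1, NR4A1, NR4A2, NR4A3 and IER5, whereas EGR2 lies between 2.9 and 14.2 throughout.

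The first question was whether the genes were still raised 6 h after the start of the oxidant. All 8 tested genes were higher with tBHP in the mean over the 3 pre-incubations (limma on log2(normalized count + 1), Benjamini-Hochberg adjusted p from 3.23e-11 to 0.000761), while 32.6% of all 13686 genes tested were called higher. Shares and counts of all genes refer to these tested genes unless another number is given. The NR4A genes led, with log2 changes from 1.25 to 1.97, followed by the IER genes, from 0.65 to 0.91, and the tested EGR genes changed least, with 0.36 for EGR1 and 0.49 for EGR3. The median of the 8 changes was 0.90, and that of all genes tested was -0.006. Ranked from the most raised gene down, NR4A3 stood at place 78 of 13686, NR4A2 at 131 and NR4A1 at 247, and EGR1 stood at 2661. In bulk RNA a change in the number of cells of a kind and a change in RNA per cell cannot be told apart.

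NR4A3, also called NOR-1, is usually silent until a stimulus arrives. Its normalized counts without tBHP were 9.7, 19.6 and 14.7 after PBS, 16.2, 18.6 and 21.7 after cNSF-HA and 20.6, 17.7 and 12.1 after fNSF-HA. With tBHP they were 99.9, 76.2 and 54.7 after PBS, 81.2, 73.1 and 54.9 after cNSF-HA and 55.2, 55.3 and 63.8 after fNSF-HA. Every tBHP library was thus above every library without tBHP, and the lowest of them was 54.7 against a highest of 21.7. The mean change of 1.97 on the log2 scale (SE 0.155, limma adjusted p = 2.89e-09) was the largest of the 8 genes.

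NR4A2 (NURR1) and NR4A1 (NUR77) are its paralogs, and NR4A1 is known for roles both in the nucleus and at mitochondria during cell death. NR4A2 was at 57.9, 43.9 and 44.1 after PBS, 49.6, 54.7 and 31.0 after cNSF-HA and 41.2, 42.4 and 40.1 after fNSF-HA. With tBHP it was at 157.7, 209.0 and 131.3 after PBS, 119.1, 116.7 and 117.9 after cNSF-HA and 126.3, 155.3 and 151.5 after fNSF-HA. The groups with and without tBHP did not overlap, and NR4A2 rose by 1.64 on the log2 scale (SE 0.113, limma adjusted p = 5.24e-10). NR4A1 was the most abundant of the 3, with 385 to 441 normalized counts in the 9 libraries without tBHP and 646 to 1164 in the 9 with it, where the lowest value was that of fNSF-HA tBHP replicate 2. NR4A1 rose by 1.25 (SE 0.0801, limma adjusted p = 1.86e-10), again without overlap.

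IER5, which binds protein phosphatase 2A and heat shock factor HSF1, responded evenly in the 3 pre-incubations (0.96, 0.94 and 0.83 on the log2 scale). Its counts without tBHP were 1367, 1417 and 1379 after PBS, 1420, 1435 and 1382 after cNSF-HA and 1356, 1272 and 1336 after fNSF-HA. With tBHP they were 2898, 2527 and 2674 after PBS, 2464, 2666 and 3047 after cNSF-HA and 2376, 2048 and 2646 after fNSF-HA. The groups did not overlap, and IER5 rose by 0.91 (SE 0.0513, limma adjusted p = 3.23e-11), or 1.88-fold, with the smallest adjusted p of the 8 genes.

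IER2, a nuclear protein linked to cell movement, had counts of 1381 to 1625 in the libraries without tBHP. With tBHP its counts were 3121, 2332 and 2703 after PBS, 2452, 2591 and 3202 after cNSF-HA and 1863, 1313 and 2756 after fNSF-HA. The fNSF-HA tBHP replicate 2 (1313) lay below every library without tBHP, and the other 8 lay above all of them. IER2 rose by 0.65 (SE 0.103, limma adjusted p = 1.95e-05), and by 0.74 without that library.

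IER3 (IEX-1), which modulates apoptosis, varied most between replicates with tBHP among the 8 tested genes. Its counts without tBHP were 84.0, 62.5 and 56.2 after PBS, 98.3, 78.2 and 75.5 after cNSF-HA and 60.8, 50.3 and 62.4 after fNSF-HA. With tBHP they were 183.8, 132.8 and 123.6 after PBS, 141.2, 173.5 and 180.9 after cNSF-HA and 86.8, 40.4 and 191.3 after fNSF-HA. The 3 fNSF-HA tBHP libraries thus held both the lowest and the highest IER3 count of all 18 libraries. IER3 rose by 0.89 (SE 0.202, limma adjusted p = 0.000761), and by 1.08 without fNSF-HA tBHP replicate 2.

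EGR1, the founding member of its family and a regulator of growth and matrix genes, had the highest count per kilobase of the 9 genes in PBS cells and rose least of the 8 tested. Its counts without tBHP lay in a narrow range, 2450 to 2650. With tBHP they were 3638, 3292 and 4010 after PBS, 2854, 3063 and 3083 after cNSF-HA and 3085, 2965 and 3678 after fNSF-HA. All 9 tBHP libraries were above the other 9, and the rise was 0.36 (SE 0.0465, limma adjusted p = 1.69e-06), or 1.29-fold. EGR3 had counts of 109 to 158 without and 148 to 229 with tBHP, so that its groups overlapped, and it rose by 0.49 (SE 0.0862, limma adjusted p = 5.88e-05).

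EGR2, also called Krox20 and known for its part in myelination, was low in all 18 libraries. Its counts without tBHP were 7.7, 7.5 and 11.2 after PBS, 2.9, 13.7 and 13.4 after cNSF-HA and 11.8, 8.9 and 9.3 after fNSF-HA. With tBHP they were 7.9, 6.5 and 14.2 after PBS, 5.3, 12.2 and 8.1 after cNSF-HA and 12.3, 10.6 and 6.8 after fNSF-HA. These ranges cover each other, and the difference of -0.004 on the log2 scale gave p = 0.989 in an exact permutation test over 8000 arrangements within pre-incubations (two-sided, smallest possible p 0.00025). At about 9 reads a library a modest change would not be detectable. The EGR2 window printed above holds a CArG box and CRE cores as the EGR1 window does.

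In all, 5 of the 8 tested genes (EGR1, NR4A1, NR4A2, NR4A3 and IER5) had every tBHP library above every other library, which held for 12.5% of all genes tested. Part of the tBHP response followed GC content across the whole transcriptome: its median was -0.38 for the quintile of transcripts with the lowest GC content, 0.03 for the middle quintile and 0.19 for the highest. NR4A2, NR4A3 and IER5 belonged to the middle quintile, EGR1 and EGR3 to the fourth (median 0.16), and NR4A1, IER2 and IER3 to the highest. With the trend of each library with GC content and length removed, the rises were 1.61 for NR4A2 (1.64 before) and 1.99 for NR4A3 (1.97 before), those in EGR1 (0.20) and IER2 (0.43) were smaller, and all 8 genes were still called by limma. The part of GC content in the response was not tested.

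Taken by pre-incubation, all 8 tested genes were called higher with tBHP after PBS (24.2% of all genes tested were), and so were all 8 after cNSF-HA (24.0%). After fNSF-HA 6 were called (19.2%), and IER2 and IER3 did not pass. Groups with and without tBHP did not overlap for 8 genes after PBS (31.8% of all genes), for 7 after cNSF-HA (31.4%), EGR3 being the exception, and for 6 after fNSF-HA (22.6%). The plot of changes with their intervals gives the 3 responses side by side. In fNSF-HA cells the change in IER2 was 0.35 (95% interval -0.02 to 0.73, limma adjusted p = 0.124) and that in IER3 was 0.60 (-0.14 to 1.34, adjusted p = 0.183). Without fNSF-HA tBHP replicate 2 they were 0.61 (limma adjusted p = 0.000835) and 1.15 (adjusted p = 0.000845), and both then passed. Without fNSF-HA tBHP replicate 3 they were 0.08 and 0.04. With every library kept, IER2 also passed with edgeR (0.48, adjusted p = 0.0442) and in each of 3 versions of a limma fit with the trend of GC content and length removed, across all libraries (0.30, adjusted p = 0.000935), with a replicate block (0.30, adjusted p = 0.000560) and within the libraries with and those without tBHP (0.53, adjusted p = 1.04e-06). IER3 passed with DESeq2 (0.87, adjusted p = 0.0289) and in the last of these versions (0.74, limma adjusted p = 0.0126).

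Calls of EGR3, EGR1 and IER3 also rested on single libraries or settings. In cNSF-HA cells EGR3 changed by 0.38 (limma adjusted p = 0.0432), and leaving out cNSF-HA replicate 1 (0.26, adjusted p = 0.197) or 2 (0.34), or cNSF-HA tBHP replicate 1 (0.33) or 2 (0.35), ended the call. In fNSF-HA cells EGR3 changed by 0.44 (limma adjusted p = 0.0250), and the call ended when fNSF-HA replicate 1 (0.42) or 3 (0.41), or fNSF-HA tBHP replicate 1 (0.37) or 3 (0.36), was left out. Both EGR3 calls also ended without a filter on low values (limma adjusted p 0.0856 in cNSF-HA and 0.0511 in fNSF-HA cells) and with only the compared groups fitted (0.0570 and 0.0622). In cNSF-HA cells the EGR3 call ended as well with the GC and length trend removed across all libraries (0.29, limma adjusted p = 0.0763, and 0.0757 with a replicate block). EGR1 rose by 0.26 in cNSF-HA cells (limma adjusted p = 0.0112), against 0.51 after PBS and 0.31 after fNSF-HA. With the GC and length trend removed across all libraries, the EGR1 change in cNSF-HA cells was 0.06 (limma adjusted p = 0.422, and 0.390 with a replicate block), and with the trend removed within the libraries with and those without tBHP it was 0.22 and passed (adjusted p = 0.00215). The IER3 rise of 1.11 in PBS cells (limma adjusted p = 0.0135) lost its call without PBS replicate 3 (0.99) and without PBS tBHP replicate 1 (0.93). That of 0.97 in cNSF-HA cells (adjusted p = 0.0277) lost it when cNSF-HA replicate 2 (0.92) or 3 (0.90), or cNSF-HA tBHP replicate 2 (0.93) or 3 (0.90), was left out.

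**Figure D2:**
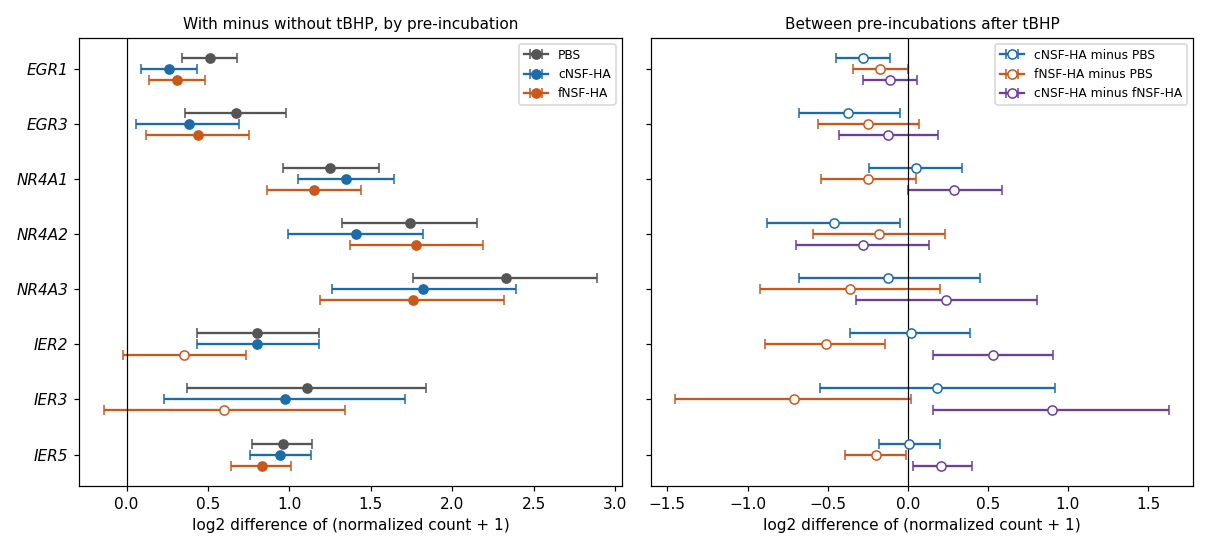
Log2 differences (horizontal axes) with 95% intervals for the 8 tested genes; left, with minus without tBHP in each pre-incubation; right, between pre-incubations after tBHP. Filled points passed a limma adjusted p of 0.05, which 22 of the 24 responses on the left and 0 of the 24 differences on the right did.

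The next question, which the study also asked, was whether HA of different length changed expression in stressed cells. Between cNSF-HA and fNSF-HA after tBHP, 0 of the 8 tested genes passed limma (0% of all genes did), 4 of them and 4412 of all genes tested had an unadjusted p under 0.05, and edgeR and DESeq2 on the recovered reads called 0 members each, with no adjusted p from DESeq2 for NR4A2, NR4A3 and IER3. Of all genes edgeR called 0 and DESeq2 called 923 (6.74%), 302 higher and 621 lower after cNSF-HA. IER2 was higher by 0.53 after cNSF-HA (95% interval 0.16 to 0.91, limma adjusted p = 0.0981) and IER3 by 0.90 (0.16 to 1.63, adjusted p = 0.106). IER5 differed by 0.21 (0.03 to 0.40, adjusted p = 0.119) and NR4A1 by 0.29 (0.00 to 0.59, adjusted p = 0.153). These intervals rest on 1 spread estimate shared by all 18 libraries, and only that of IER3 reaches beyond 1 log2 unit. The SD within groups was larger with tBHP, at 0.352 against 0.0774 without it for IER2. For IER3 it was 0.672 against 0.229. For both genes the intervals are therefore narrower than the tBHP libraries alone would give, and 1 log2 unit is not a firm bound. EGR1 (-0.11), EGR3 (-0.12) and NR4A2 (-0.28) had lower means after cNSF-HA, and NR4A3 a higher one (0.24).

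NR4A2 was the only one of the 8 whose cNSF-HA and fNSF-HA libraries did not overlap after tBHP, which held for 13.4% of all genes tested. The libraries of cNSF-HA lay at 116.7 to 119.1 and the 3 fNSF-HA libraries at 126.3 to 155.3. The difference of -0.28 had a 95% interval of -0.70 to 0.13 and a limma adjusted p of 0.310.

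The values of NR4A1, IER2 and IER3, the members in the GC-rich quintile, turned on single fNSF-HA tBHP libraries. In replicate 2 the deviations from the mean of the 9 tBHP libraries were -1.64 for IER3, -0.87 for IER2 and -0.61 for NR4A1, beside the median of -0.61 for the GC-rich quintile. Replicate 2 was also the lowest of the 9 for IER5 and EGR3 (-0.33 each), which lie outside that quintile. In replicate 3 the deviations were 0.58 for IER3, 0.20 for IER2 and 0.24 for NR4A1, beside 0.14 for the quintile. Without replicate 2 the cNSF-HA minus fNSF-HA difference was 0.27 for IER2, 0.35 for IER3 and 0.08 for NR4A1 (limma adjusted p 0.572, 0.630 and 0.788). Without replicate 3 it was 0.80 for IER2, 1.45 for IER3, 0.50 for NR4A1 and 0.30 for IER5, and these 4 genes passed (adjusted p 0.00115, 0.00126, 0.00270 and 0.0122), as 5586 of all genes did. With the GC and length trend removed it was 0.17 for IER2, 0.60 for IER3 and 0.04 for NR4A1, and 0 genes of the 8 passed. The part of GC content in these differences was not tested.

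**Figure D3:**
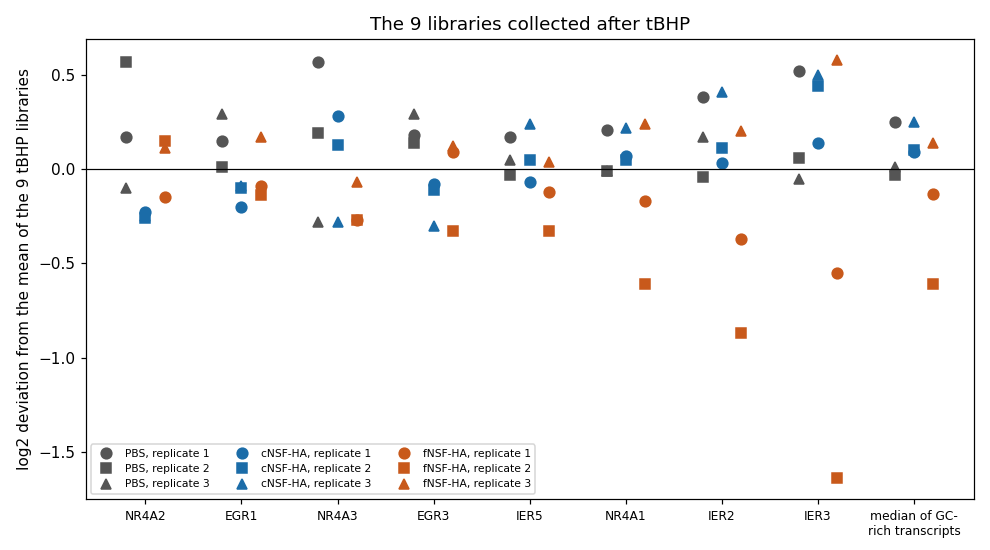
Log2 deviation of each of the 9 libraries collected after tBHP from their mean (vertical axis), for the 8 tested genes and for the median of the quintile of transcripts with the highest GC content; colours give the pre-incubation and symbols the replicate. The fNSF-HA replicate 2 (orange squares) is lowest for IER3 (-1.64), IER2 (-0.87), NR4A1 (-0.61), IER5 (-0.33), EGR3 (-0.33) and the GC-rich transcripts (-0.61), and not for EGR1 (-0.14), NR4A2 (0.15) and NR4A3 (-0.27).

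Against PBS after tBHP, cNSF-HA and fNSF-HA shared the same 3 PBS libraries, and no member passed in either comparison (0% and 0.139% of all genes did). By unadjusted p under 0.05, limma gave 3 members and 1183 genes for cNSF-HA and 3 members and 3102 genes for fNSF-HA. Neither edgeR nor DESeq2 called any of the 8. Of all genes edgeR called 0 and DESeq2 5 (0.0365%) for cNSF-HA, and for fNSF-HA edgeR called 36 (0.263%) and DESeq2 442 (3.23%), 331 of these higher and 111 lower than after PBS. After cNSF-HA, the means of EGR1 (-0.28, 95% interval -0.45 to -0.11, limma adjusted p = 0.490), EGR3 (-0.37, -0.68 to -0.05, adjusted p = 0.558) and NR4A2 (-0.46, -0.88 to -0.05, adjusted p = 0.561) lay below those after PBS. With the GC and length trend removed the EGR1 difference was -0.30 (limma adjusted p = 0.0750), and with a replicate block in the same fit it passed (-0.30, adjusted p = 0.0442), 1 of 5 genes called of 12528. IER2 (0.02), IER5 (0.01) and NR4A1 (0.05) were close to PBS. Their intervals, with the spread shared by all 18 libraries, stayed within 0.40 of 0 on either side. The cNSF-HA and PBS libraries after tBHP did not overlap for EGR1, EGR3 and NR4A2, 3 of the 8 genes, and for 9.57% of all genes.

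After fNSF-HA all 8 means lay below those after PBS, from -0.71 for IER3 to -0.17 for EGR1, with adjusted p from 0.139 to 0.586 in limma. The quintile of transcripts with the highest GC content, which holds NR4A1, IER2 and IER3, had a median of -0.28 in this comparison. With the GC and length trend removed, NR4A1 went from -0.25 to 0.01, and the other 7 genes stayed below PBS, from -0.54 for IER3 to -0.05 for EGR1. The part of GC content was not tested. The largest differences were those of IER3 (-0.71, 95% interval -1.45 to 0.02) and IER2 (-0.51, -0.89 to -0.14). Without fNSF-HA tBHP replicate 2 they were -0.16 and -0.25. Without fNSF-HA tBHP replicate 3, EGR1 (-0.27), NR4A1 (-0.45), IER2 (-0.79), IER3 (-1.27) and IER5 (-0.29) were called lower, as were 2122 of all genes tested, with 1902 called higher.

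The differences between responses were tested directly. Between cNSF-HA and fNSF-HA, between cNSF-HA and PBS and between fNSF-HA and PBS, 0 members passed limma (0% of all genes in each), and 533, 555 and 942 genes had an unadjusted p under 0.05. Among the members, EGR1 alone did, whose response differed by -0.25 between cNSF-HA and PBS (95% interval of the difference -0.49 to -0.01, limma adjusted p = 0.999). The IER2 response differed by 0.45 between cNSF-HA and fNSF-HA (-0.08 to 0.98, limma adjusted p = 0.710), by 0.19 without fNSF-HA tBHP replicate 2, by 0.72 without replicate 3 of that group and by 0.17 with the GC and length trend removed. That of IER3 differed by 0.37 (limma adjusted p = 0.786), and in these settings by -0.18, 0.93 and 0.11, none of which passed for either gene. For IER5, the gene with the narrowest intervals beside EGR1, the 3 differences were 0.12 (-0.15 to 0.38), -0.01 (-0.28 to 0.25) and -0.13 (-0.39 to 0.13). The change of the response between pre-incubations was thus not shown for any of the 8 genes.

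Without tBHP, 6 h of either HA left no member past the threshold against PBS or against the other HA (0% of all genes in each of the 3 comparisons). The fit shares its spread over all 18 libraries, and the median SD of all genes was 0.0761 without and 0.206 with tBHP. The tests without tBHP are thus less sensitive, and 0% does not show that HA had no effect. limma gave 206 genes with an unadjusted p under 0.05 for cNSF-HA against fNSF-HA, 126 for cNSF-HA against PBS and 109 for fNSF-HA against PBS, with 0 members among them. For EGR1 the 3 differences were -0.06, -0.03 and 0.03, with intervals within 0.23 of 0. The cNSF-HA and fNSF-HA libraries did not overlap for NR4A1, IER3 and IER5, 3 of the 8 genes against 25.0% of all genes. IER3 was at 75.5 to 98.3 after cNSF-HA and at 50.3 to 62.4 after fNSF-HA, a difference of 0.53 (95% interval -0.21 to 1.26, limma adjusted p = 1.00), which passed when only these 6 libraries were fitted (limma adjusted p = 0.0325), as did 980 of all genes (7.16%), 244 higher and 736 lower.

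The spread between replicates grew with tBHP for some genes and not for others. Its SD within groups on the log2 scale went from 0.0439 to 0.262 for NR4A1, from 0.0774 to 0.352 for IER2, from 0.229 to 0.672 for IER3, from 0.0355 to 0.151 for IER5 and from 0.0394 to 0.131 for EGR1. For EGR3 (0.204 and 0.168), NR4A2 (0.280 and 0.215) and NR4A3 (0.368 and 0.306) it was somewhat lower with tBHP. The median over all genes tested went from 0.0761 to 0.206. Without fNSF-HA tBHP replicate 2, a setting chosen after seeing the data, the SD with tBHP was 0.163 for NR4A1, 0.257 for IER2, 0.423 for IER3, 0.126 for IER5 and 0.127 for EGR1, and the median over all genes was 0.169. In EGR3 it was 0.0911, in NR4A2 0.228 and in NR4A3 0.333.

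Related genes were followed in the mean tBHP response from lists that were written with earlier results of these data known. Of 37 other immediate early genes tested, 32 were higher and 3 lower, with a median change of 0.47, and ATF3 (4.07), the growth-arrest gene BTG2 (3.05), FOSB (2.11) and KLF4 (1.81) changed most. Of 18 upstream kinases and transcription factors, 7 were higher and 7 lower, with a median of -0.08, while 32.6% of all genes tested were higher and 35.2% lower. CREM, a CRE-binding factor, rose by 0.74 and the ERK kinase MAP2K2 by 0.46, and the kinases MAPK8 (JNK1) and RPS6KA3 (RSK2) fell by 0.50 each. Among the other factors of CArG boxes and CREs, SRF fell by 0.37 and CREB1 by 0.27, and ATF1 rose by 0.18. The median of all genes tested was -0.006.

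Among 10 corepressors and mRNA decay factors, 6 were higher and 3 lower, with a median of 0.34, beside 32.6% higher and 35.2% lower of all genes tested. ZFP36, which speeds the decay of AU-rich transcripts, rose by 1.31, TOB1 by 1.15 and BTG1 by 0.64. NAB1, a corepressor of EGR1, fell by 0.60, whereas the corepressor NAB2 rose by 0.51. Of 5 partners and effectors tested, RXRB (0.49) and HSF1 (0.32) were higher and the phosphatase subunit PPP2R5C (-0.29) lower, with a median of 0.16. Of the 2 family relatives, IER5L was tested and not called (0.16), and EGR4 was under the filter.

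Of 15 widely described EGR1 targets tested, 8 were higher and 6 lower (median 0.43), while 32.6% of all genes tested were higher and 35.2% lower. GDF15 rose by 6.62, ATF3 by 4.07 and the growth factor PDGFA by 2.01, and tissue factor F3 fell by 1.37. GDF15 and ATF3, the latter also in the first list, are known as targets of p53 and of the integrated stress response. Of 6 heat shock genes tested, which HSF1 drives, 5 were higher and 1 lower (median 0.36), with BAG3 at 0.78, HSPB1 at 0.75, HSP90AA1 at 0.42 and HSPA8 at -0.36. All changes in these lists are log2 differences from limma called at an adjusted p under 0.05 unless stated, and in the comparisons between pre-incubations 0 of the genes of these lists were called.

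**Figure D4:**
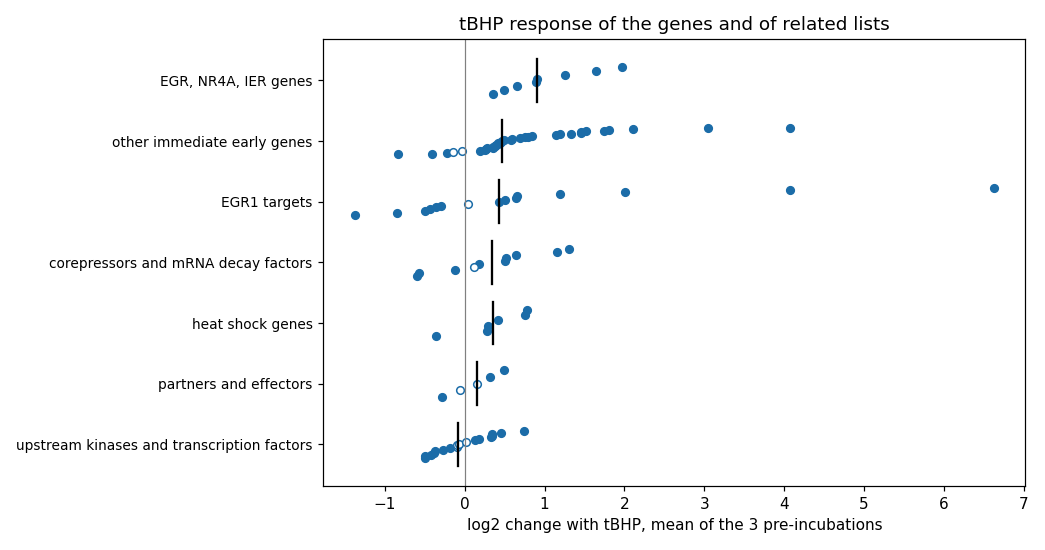
Log2 change with tBHP in the mean over the 3 pre-incubations (horizontal axis) for the 8 tested genes and for related lists; each point is a gene, filled where limma called it, and the black bar is the median of the list. The median is 0.90 for the EGR, NR4A and IER genes, 0.47 for other immediate early genes and -0.08 for the upstream kinases and factors.

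Genes with the most similar pattern were found among 10179 genes with a mean count of at least 100, by the root-mean-square difference of centred log2 values over the 18 libraries, a description in which the libraries and their GC content are shared. IER5 lay closest to TALDO1 (0.062), VPS37B (0.064) and the small MAF factor MAFF (0.065), against a median difference of 0.497 over all genes compared. IER2 lay closest to PIM3 (0.070), NR1H2 (0.075) and GLTSCR2 (0.075), and NR4A1 to RGS3 (0.071), FADS3 (0.082) and CCDC9 (0.087), the medians being 0.456 for IER2 and 0.669 for NR4A1. EGR1 lay closest to RAP2B (0.080), IRF2BP2 (0.087) and MOCS3 (0.092), and EGR3 to SOX9 (0.141), RETSAT (0.148) and AHRR (0.148), with medians of 0.287 for EGR1 and 0.358 for EGR3. The nearest genes were METRNL (0.210), CTSD (0.234) and ZNF358 (0.252) for IER3, CREB5 (0.241), SLC6A6 (0.248) and MXI1 (0.253) for NR4A2, and ARHGEF2 (0.271), UNC5B (0.276) and PCK2 (0.300) for NR4A3, whose medians were 0.702, 0.877 and 1.05. No member was among the candidates.

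The loci of the genes are given in GRCh38 with GENCODE release 29. EGR1 lies on chromosome 5 (138465490 to 138469315, plus strand), EGR2 on chromosome 10 (62811996 to 62919900, minus strand) and EGR3 on chromosome 8 (22687659 to 22693302, minus strand). NR4A1 lies on chromosome 12 (52022832 to 52059507, plus), NR4A2 on chromosome 2 (156324432 to 156342348, minus) and NR4A3 on chromosome 9 (99821855 to 99866891, plus). IER2 lies on chromosome 19 (13150415 to 13154908, plus), IER3 on chromosome 6 (30743199 to 30744554, minus) and IER5 on chromosome 1 (181088712 to 181092899, plus). Genes on the opposite strand share 164 exon bases with EGR3, 754 with NR4A1, 946 with IER2 and 359 with IER3, and since the library kit does not mark strand, reads from those bases cannot be told apart.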

How the data were processed

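RNA of IMR90 cells was measured in 18 libraries (6 groups of 3 replicates, grouped by the labels). Per the labels and the study's methods, libraries were made with TruSeq RNA V2, which does not mark strand, and read single-end for 100 nt. The submitters' processing notes name Trimmomatic 0.32, STAR 2.5.2b, featureCounts, Subread 1.5.0-p3, DESeq2 and GRCh38.p7; the annotation is not given in the sources used here. The deposited signal is the normalized count of each gene, reads divided by the DESeq2 size factor of the library: 100% of values were whole multiples of 1 read (tolerance 0.01 read). The authors' 3 columns of p-value, q-value and rank were not used.

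The 13686 genes with a mean of at least 10 were tested with limma 3.58.1 (R 4.3.3) on log2(value + 1), which understates changes of low genes, with a mean-variance trend, a coefficient for each group, and two-sided Benjamini-Hochberg adjusted p at 0.05. All 18 libraries were in 1 fit, so that the groups shared 1 estimate of the spread. EGR2, under the filter, was tested by exact permutation. The fit was tested on simulated data. Alternatives were edgeR 4.0.16 and DESeq2 1.42.0 on recovered reads, other pseudocounts, filters and scalings, a replicate block, a GC and length correction (91.5% of genes) and left-out libraries. The named genes are the 9 members, up to 4 called genes with the largest change from each list, and the 3 genes most like each member. NAB2, SRF, CREB1 and ATF1 are named in addition. Members and lists were chosen with earlier results of these data known. Identity between proteins was not run.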

Additional observations from a re-analysis of the deposited data

How the results depend on the processing

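The rise of the 8 tested genes in the mean tBHP response was called under every alternative run, except that a minimum mean of 50 left 7 genes, without NR4A3. Within single pre-incubations 9 calls were lost and 6 gained over all alternatives that kept every library, all among EGR1, EGR3, IER2 and IER3. In fNSF-HA cells IER2 was gained with edgeR and in the 3 versions with the GC and length trend removed, and IER3 with DESeq2 and in 1 of those versions. Without a filter on low values IER3 lost its call in cNSF-HA cells (limma adjusted p = 0.0514) and EGR3 in cNSF-HA and fNSF-HA cells (0.0856 and 0.0511), and EGR3 lost both with only the compared groups fitted (0.0570 and 0.0622). Between pre-incubations the count of members called was 0 throughout, with these exceptions. It was 1 for cNSF-HA against PBS after tBHP with the replicate block and the GC and length trend removed (EGR1, -0.30, limma adjusted p = 0.0442, with 5 of all genes called), and 1 for cNSF-HA against fNSF-HA without tBHP with only those groups fitted (IER3, limma adjusted p = 0.0325), a fit that called 980 of all genes. With 1 library left out it was 0 to 4 for cNSF-HA against fNSF-HA after tBHP and 0 to 5 for fNSF-HA against PBS after tBHP, the highest counts in both cases without fNSF-HA tBHP replicate 3. The causes were not tested.

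Of 2203 member values under alternatives, 61 changed sign and 0 of those passed the threshold. With the GC and length trend removed, in each of its 3 versions (across all libraries, with the replicate block, and, chosen after seeing the data, within tBHP status), cNSF-HA against PBS after tBHP was -0.06 for IER2, fNSF-HA against PBS after tBHP was 0.01 for NR4A1, and the difference of responses between cNSF-HA and PBS was 0.04 for IER5. With 1 library left out, cNSF-HA against PBS after tBHP ranged from -0.01 to 0.12 for NR4A1, from -0.34 to 0.09 for NR4A3, from -0.10 to 0.12 for IER2 and from -0.07 to 0.08 for IER5, the difference of responses of IER5 from -0.10 to 0.06 and that of IER3 between cNSF-HA and fNSF-HA from -0.18 to 0.93. For EGR2 the tBHP difference was 0.004 with a pseudocount of 0.1.

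The correlation of deviations ranged from -0.12 to 0.33 over 45 pairs of same-numbered libraries, and 6 were over 0.1. In 24 of 45 comparisons the own number gave the highest of 3 correlations. In 0 of 15 pairs of groups were all 3 over 0.1, so the numbers were not taken as pairs, although this does not exclude that some were. The replicate block alone changed no count of members called, for example 8 in the mean tBHP response and 0 for cNSF-HA against fNSF-HA after tBHP. Of all genes it called 61 for fNSF-HA against PBS after tBHP, against 19 without the block. Depth limits EGR2, and the spread between 3 replicates limits IER3 and NR4A3.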
